A study of Mus musculus with 768 samples.

Results

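The nuclear-coded subunits of the oxidative phosphorylation machinery were followed in single nuclei of the mouse striatum. They were chosen by symbol as the genes whose names start with Ndufa, Ndufb, Ndufc, Ndufs, Ndufv, Uqcr, Cox4i, Cox5, Cox6, Cox7, Cox8 or Atp5, with the assembly factors named Ndufaf left out, and no measured value entered the choice. The rule found 81 of the 24489 genes of the table. Of these, 38 belong by name to complex I, 8 to complex III, 18 to complex IV and 17 to complex V. Under current names, 2 of the genes counted with complex V, Atp5sl (now Dmac2) and Atp5s (now Dmac2l), are not subunits of the synthase, and Ndufa4, named for complex I, is assigned by later biochemistry to complex IV.

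The nuclei came from untreated C57BL/6 mice that carried the allele labelled H2BG together with a Cre driver, and each of the 2 genotypes filled 1 plate, 768 wells in all. The Oprm1-Cre driver is active where the mu opioid receptor gene is expressed, which in the striatum includes the neurons of the patches, and the Slc32a1-Cre driver is active in GABAergic neurons through the gene of the vesicular GABA transporter. Neither age nor the number of animals per plate is stated in the labels. Xist was read in 72.3% of the spiny projection neuron (SPN)-like nuclei from Slc32a1-Cre mice and in 2.11% of those from Oprm1-Cre mice, and the Y-linked gene Eif2s3y in 0% and 73.2%, so that genotype, plate, sex and animals cannot be told apart. Nuclei of 1 plate are not replicates, and no p-value was computed.

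A nucleus was kept with at least 1000 genes and 20000 reads on genes, which left 736 nuclei, 48.2% of them from Oprm1-Cre mice. Median depths were 169398 reads for Oprm1-Cre and 175337 for Slc32a1-Cre nuclei. Spike-in RNA took a median of 23.9% and 22.2% of all reads. By marker genes 686 nuclei were SPN-like. Of these, 490 resembled SPNs of the direct pathway (D1-like), 60.6% of them from Oprm1-Cre mice, and 662 could be called D1-like or D2-like, the latter resembling SPNs of the indirect pathway. D2-like nuclei numbered only 24 on the Oprm1-Cre plate (6.76% of its kept nuclei) and made up 38.8% of the kept nuclei of the other. There were 13 and 16 interneuron-like nuclei, in the order Oprm1-Cre and Slc32a1-Cre. Markers of other cell types were low: the 7 astrocyte markers together held a median of 0.0361% and 0.0317% of D1-like reads, the 7 oligodendrocyte markers together held a median of 0.00593% and 0.000823% of D1-like reads, with a highest value of 0.766%, and the 6 microglial markers a median of 0%.

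In the inner membrane of the mitochondrion, complexes I, III and IV pass electrons from NADH to oxygen and pump protons, and complex V, the ATP synthase, uses the proton gradient to make ATP. Neurons depend heavily on this route to pay for ion pumping and synaptic transmission. Most subunits are coded in the nucleus, made in the cytosol and imported, while a smaller set is coded by mitochondrial DNA. Mitochondrially coded genes were not analysed here. The values below measure RNA in isolated nuclei and not the mRNA or protein of whole cells.

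The control regions of 4 members are shown as examples that hold motif matches, picked from the 20 members that were higher in nuclei with many detected genes on both plates. Of the 19 of these with a promoter window, 14 held at least 1 of the 5 motifs searched and 5 held none. Each line gives the 250 bases before the RefSeq transcription start, 5′ to 3′ on the coding strand, in GRCm38.p6, with the letters of any of 5 motifs in capitals.
Cox6a1, chr5:115348959-115349208, minus strand: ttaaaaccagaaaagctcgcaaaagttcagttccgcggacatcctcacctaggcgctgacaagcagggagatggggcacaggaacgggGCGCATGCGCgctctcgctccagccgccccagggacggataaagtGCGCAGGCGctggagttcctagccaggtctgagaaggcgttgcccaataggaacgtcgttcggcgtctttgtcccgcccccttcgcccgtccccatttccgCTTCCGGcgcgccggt
Ndufa11, chr17:56717512-56717761, plus strand: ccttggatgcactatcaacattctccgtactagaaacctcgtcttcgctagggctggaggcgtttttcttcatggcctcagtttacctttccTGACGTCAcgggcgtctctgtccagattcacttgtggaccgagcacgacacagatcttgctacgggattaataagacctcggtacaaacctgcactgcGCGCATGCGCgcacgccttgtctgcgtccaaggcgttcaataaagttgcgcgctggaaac
Uqcr11, chr10:80406822-80407071, minus strand: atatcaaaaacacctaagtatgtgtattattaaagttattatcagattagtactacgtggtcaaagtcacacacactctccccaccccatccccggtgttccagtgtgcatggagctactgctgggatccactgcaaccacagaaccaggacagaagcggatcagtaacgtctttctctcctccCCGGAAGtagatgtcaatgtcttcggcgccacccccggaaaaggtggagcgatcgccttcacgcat
Uqcrh, chr4:116075071-116075320, minus strand: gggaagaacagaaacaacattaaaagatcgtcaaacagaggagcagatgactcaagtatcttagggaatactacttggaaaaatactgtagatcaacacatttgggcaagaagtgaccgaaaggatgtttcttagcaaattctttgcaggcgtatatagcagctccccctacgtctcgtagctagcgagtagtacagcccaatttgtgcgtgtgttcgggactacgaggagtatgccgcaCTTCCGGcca
The motifs, searched on both strands with overlaps allowed, were those of the respiratory gene activator NRF1 (GCGCANGCG), the ETS family, which includes the GABP or NRF2 factor (CCGGAAG), YY1 (AANATGGCG), the cAMP response element (TGACGTCA) and the TATA box (TATAAA). In Cox6a1 the capitals mark NRF1 letters at 2 places, the first of them matching on both strands, and 1 ETS match near the start, in Ndufa11 a cAMP response element and an NRF1 match on both strands, and in Uqcr11 and Uqcrh 1 ETS match each.

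Promoter windows of 300 bases, from 250 before to 50 after the start, matched 67 of the 81 members through 73 windows. The NRF1 letters stood in 26% of member windows, against 6.25% of all 32851 windows and 14.2% of the 10222 windows of genes at 5 CPM or more (CPM, reads of a gene scaled to 1000000 reads on genes) in SPN-like nuclei. For YY1 the shares were 16.4% of member windows, 2.38% of all windows and 5.38% of the windows of expressed genes. ETS letters stood in 19.2% of member windows and in 17.6% of those of expressed genes, and cAMP response elements in 5.48% and 3.35%. All windows held ETS letters in 8.86% and cAMP response elements in 1.79%. The TATA letters were found in 11% of member windows, in 13.6% of all windows and in 6.53% of those of expressed genes. A match describes letters in a window and was not tested as a binding site.

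Members were among the more abundant transcripts of striatal nuclei once length was taken into account. Their transcripts had a median of 730 bases, the longest 2675, against 2292 for the other genes. In the summed SPN-like nuclei of both plates, 69 members reached 5 CPM, with a median level of 57.2 CPM against 39.4 CPM for the other genes at that level. Per kilobase of transcript the medians were 77.6 and 14.3, and 60 of these 69 members, or 87%, lay in the highest 25% of the 10214 genes compared.

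The highest level per kilobase belonged to Atp5b (chr10:128083273-128090391, GRCm38, plus strand), the catalytic beta subunit of the synthase, at 484.5 CPM per kb. Ndufa4 followed at 316.1, and the third was Cox4i1 (chr8:120668222-120674207), the ubiquitous form of the largest nuclear-coded complex IV subunit, whose level was 231.1 CPM. The synthase alpha subunit Atp5a1 stood at 227.1, Atp5g3, a source of the membrane ring's c subunit, at 219.8, the complex I subunit Ndufb5 at 201.9, the synthase gamma subunit Atp5c1 at 162.6 and the complex I subunit Ndufa6 at 153.9 CPM per kb. Thus 4 of the 8 highest came from the synthase, including both subunits of its catalytic hexamer and the shaft that turns within it. Exon bases of Atp5a1 overlap Haus1 and those of Ndufb5 overlap Mrpl47 on the opposite strand, and the sources used here do not state whether the authors counted by strand.

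Single nuclei varied widely around these levels. Atp5b ranged over Oprm1-Cre D1-like nuclei from 0 to 3086 CPM with a median of 561.2, and over Slc32a1-Cre D1-like nuclei from 0 to 3753 with a median of 749.9 CPM. In D2-like nuclei its medians were 739.1 CPM (0 to 2417) and 907.5 CPM (0 to 3240). The ranges overlap almost wholly, and 9 and 6 D1-like nuclei had no Atp5b read. Cox4i1 had medians of 147.5 and 216.1 CPM among D1-like nuclei, with 32 and 12 nuclei at 0. After each nucleus was thinned to 50000 reads, Atp5b was found in 94.9% of 684 SPN-like nuclei, Cox4i1 in 88% and Atp5a1 in 86.8%. A median D1-like nucleus then showed 36 of the 81 members on the Oprm1-Cre plate (11 to 66) and 39 on the Slc32a1-Cre plate (16 to 65), and before thinning 42 and 45.

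**Figure D1:**
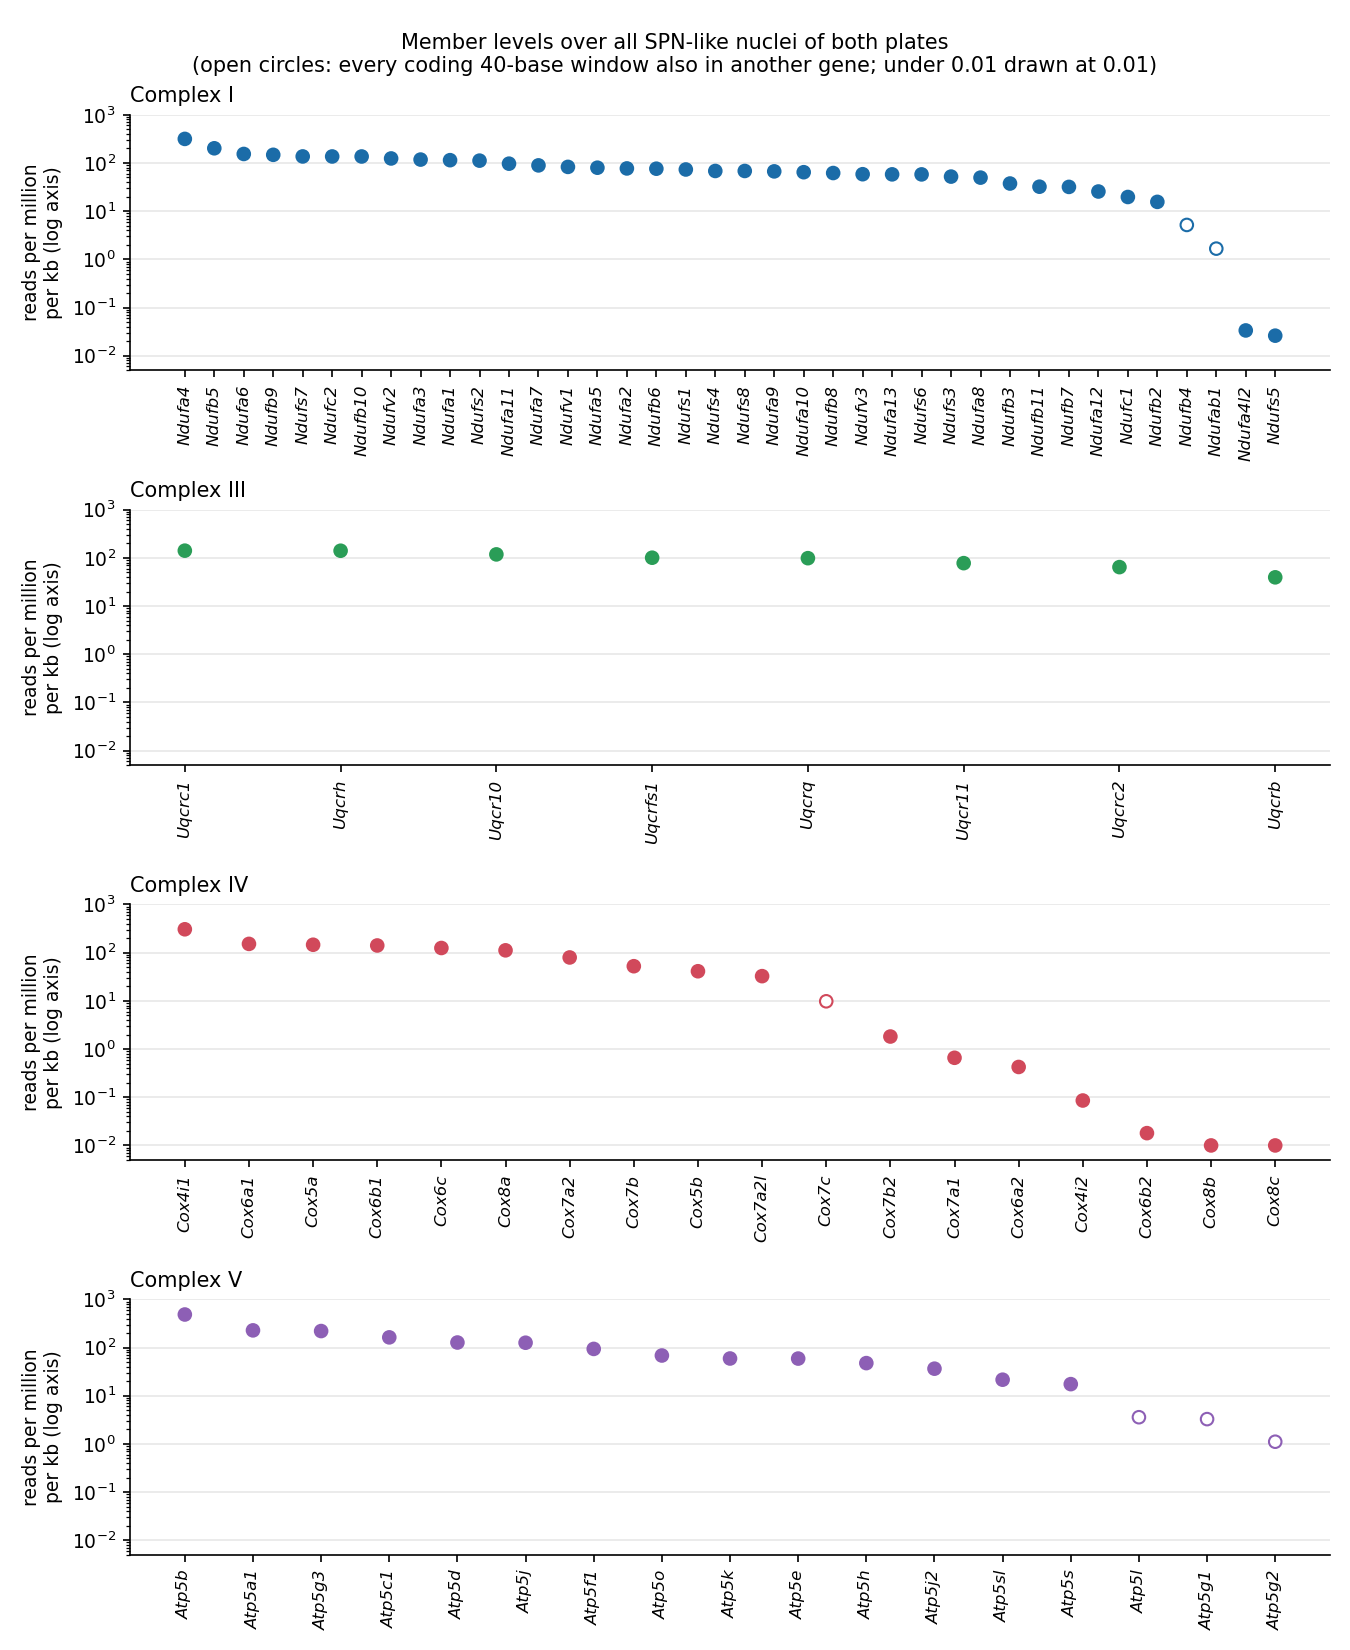
CPM per kilobase of transcript (log axis) of each of the 81 members in the summed SPN-like nuclei of both plates, by complex; open circles mark members whose whole coding sequence, read in 40-base windows, also occurs in transcripts of another gene. Most members lie between 15.6 and 484.5, while tissue-specific isoforms and the 6 open circles lie lower.

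Several subunits of complexes I and IV exist as a widely expressed form and a form known from heart and skeletal muscle, testis or lung, and SPN-like nuclei used the first kind. Per kilobase of transcript, Cox6a1 stood at 152.2 CPM and Cox6a2, the heart and muscle form, at 0.425, and Cox6b1 at 141.1 and the testis form Cox6b2 at 0.0180. Cox7a2 reached 79.6 and the muscle form Cox7a1 0.659 CPM per kb. The related Cox7a2l, which takes part in joining complexes into supercomplexes, stood at 32.6. Cox7b stood at 52.4 and Cox7b2 at 1.82 CPM per kb, and Cox8a at 111.9 while the muscle form Cox8b had no read in SPN-like nuclei. Cox8c had no read in any kept nucleus. Against the high level of Cox4i1, the lung and hypoxia form Cox4i2 stood at 0.0856, and Ndufa4 stood at 316.1 against 0.0335 CPM per kb for its relative Ndufa4l2. The common form was the higher one in all 7 of these comparisons.

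A second set of low members consists of housekeeping subunits. Ndufab1, the mitochondrial acyl carrier protein, stood at 1.67 CPM per kb, the complex IV subunit Cox7c at 9.80, the complex I subunit Ndufb4 at 5.18, the synthase g subunit Atp5l at 3.58, and Atp5g1 and Atp5g2, which code the same c subunit as Atp5g3, at 3.27 and 1.11 CPM per kb. These 6 were exactly the members whose every coding window of 40 bases also occurs in the annotated transcripts of another gene, mostly pseudogenes: Atp5l had copies in 15 other genes, 14 of them pseudogenes, and Cox7c in 5. Ndufs5, a complex I subunit with 2 reads in all kept nuclei, shares 77.1% of its coding windows with 1 pseudogene. Of the other 66 members that are not tissue isoforms, none lay under 15.6 CPM per kb, and the 30 with no shared window had a median of 99.5. Among these 66, Uqcrb shares more of its windows than Ndufs5, 81.6%, and stood at 39.4 CPM per kb. The 9 members with 50% to under 100% of windows shared had a median of 41.2, with Ndufs5 the lowest at 0.0261. The sources used here do not say how reads with several matches were counted. The part of such counting in the low values of Ndufs5 and the 6 fully shared members was not tested. Levels of these 7 genes are therefore uncertain, and Atp5g3 cannot be ranked against Atp5g1 and Atp5g2 from these counts.

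In interneuron-like nuclei the heart and muscle form Cox6a2 was also found, though its common form stayed the higher one in the sum. The muscle forms Cox7a1 and Cox8b were each read in 1 interneuron-like nucleus of the Slc32a1-Cre plate, with 4 and 2 reads. Cox6a2 (chr7:128205435-128206387, GRCm38, minus strand) was read in 8 of the 9 nuclei of cluster 7, a group found on the Slc32a1-Cre plate and led by Nxph1, Igfbp4 and Kit. Its level over the 9 nuclei was 86.7 CPM (Poisson 95% interval 73.6 to 101.4, counting error only), with a median of 64.2 CPM over the nuclei, beside 112.8 CPM for Cox6a1. In the other interneuron-like nuclei, those of cluster 6, which is led by Npy and Sst and holds 12 nuclei with Th reads, it was read in 0 of 7 nuclei of the same plate and in 1 of 13 of the Oprm1-Cre plate, at 30.6 CPM. In SPN-like nuclei it was read in 3 on that plate (0.847%, Clopper-Pearson 95% interval 0.175 to 2.46) and in 4 from Oprm1-Cre mice (1.20%, 0.329 to 3.06), at 0.313 and 0.263 CPM. Median depths were 175335 and 169770 reads there and 175337 in cluster 7. The values of cluster 7 thus lay above those of nearly all other nuclei, 1 nucleus of cluster 7 at 0 excepted.

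Cluster 7 also held the reads of Pvalb and Pthlh, which mark fast-spiking striatal interneurons: Pvalb was read in 6 of its 9 nuclei and Pthlh in 8, and neither had a read in any of the 20 nuclei of cluster 6. The 2 genes did not always travel together with Cox6a2. The nucleus without Cox6a2 had Pthlh reads but no Pvalb read, and 1 nucleus with 15 Cox6a2 reads had neither Pvalb nor Pthlh but 62 reads of the cholinergic marker Chat. Itgad, whose exons overlap Cox6a2 on the opposite strand, had no read in any of these nuclei. Cox6a1 and Cox6a2 were read together in 7 of the 9 nuclei, so that both forms were mostly present in the same nucleus. Cluster 7 was found with all genes in view, so its difference is a description.

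**Figure D2:**
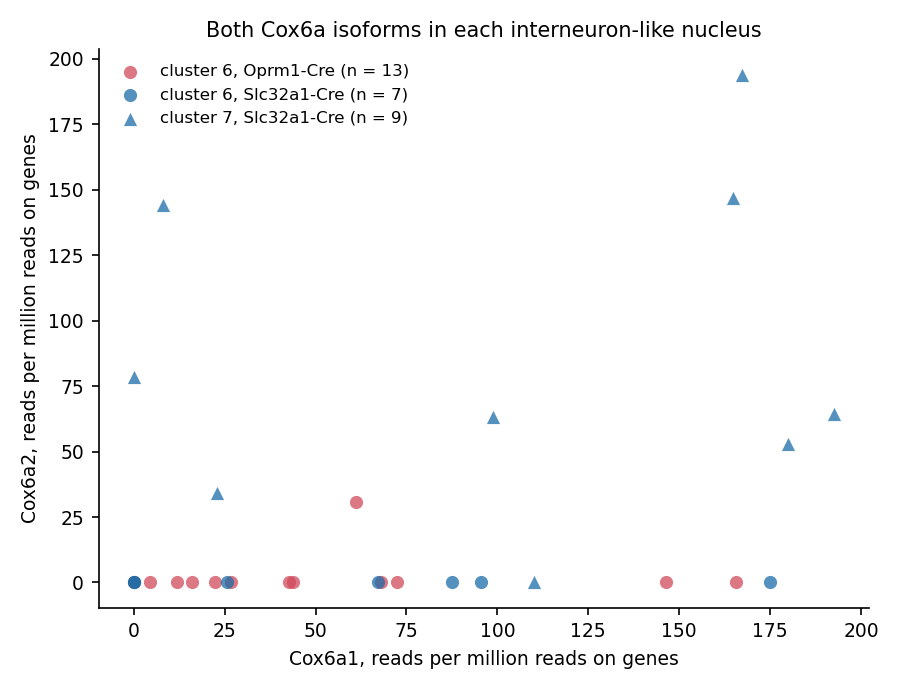
CPM of Cox6a2 (vertical) against Cox6a1 (horizontal) in each of the 29 interneuron-like nuclei, by cluster and plate. Of the 9 nuclei of cluster 7, 8 lie at 34.2 or more for Cox6a2, while all but 1 of the 20 nuclei of cluster 6 lie at 0.

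Summed, the members held 0.570% of interneuron-like reads and 0.583% of SPN-like reads from Oprm1-Cre mice, and 0.878% and 0.728% from Slc32a1-Cre mice. On the log2 scale these ratios were -0.03 and 0.27. Single interneuron-like nuclei ranged from 0.409% to 0.781% on the first plate and from 0.304% to 1.98% on the second. The higher value on the Slc32a1-Cre plate rested on cluster 7, whose median was 0.834%: with the 7 nuclei of cluster 6 alone the log2 ratio was -0.09. For Oprm1-Cre, whose interneuron-like nuclei all belong to cluster 6, the ratio turned to 0.16 when the median over nuclei was used. Most cluster 6 nuclei had Th reads on the Oprm1-Cre plate and Sst and Npy reads on the Slc32a1-Cre plate.

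Single members differed more than the sum did. On the Oprm1-Cre plate 5 of 68 measured members lay above 0.5 on the log2 scale, with 5 CPM added to both sides, and 18 below -0.5, where 71.4% of all genes passed in either direction and 40.4% downwards. Ndufb5 was higher at 217.1 against 96 CPM (log2 ratio 1.14), and the synthase alpha subunit Atp5a1 lower at 216.7 against 510.2 CPM (-1.22), with a median of 117.2 CPM and 4 of 13 nuclei at 0. The complex I subunits Ndufb6 and Ndufb7 were lower by log2 ratios of -1.58 and -1.53. On the Slc32a1-Cre plate 18 of 71 members lay above 0.5 and 6 below -0.5, where 30.7% and 36.6% of all genes did. After Cox6a2, with a log2 ratio of 3.27, came Atp5c1 at 437.9 against 227.3 CPM (0.93), the complex III core subunit Uqcrc1 at 492.4 against 259.3 CPM (0.91) and Ndufa4 at 301.7 against 169.3 CPM (0.82). The lowest were the complex I subunit Ndufa2 (-0.74) and the complex III subunit Uqcrq (-0.73). Both plates had Atp5s above 0.5, from 4 and 6 nuclei with a read, and no other member passed upwards on both, which is 1.47% of the 68 members measured on both against 14.9% of 10850 genes. The complex I subunits Ndufs3 (-0.93 and -0.68) and Ndufb10 (-0.80 and -0.59) lay below -0.5 on both, or 2.94% of members against 22% of genes. These sums rest on 13 and 16 nuclei.

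By log2 ratio of the sums, most measured factors known to drive genes of mitochondria were lower in interneuron-like nuclei. Their median share per nucleus was lower than in both SPN-like classes on the Oprm1-Cre plate only. Of 17 measured genes on the list of mitochondrial regulators, 10 lay below -0.5 on either plate and 3 above 0.5, where 40.4% and 36.6% of all genes lay below, with medians of -0.89 and -0.97 against -0.15 and -0.08 for all genes. Ppargc1a, the coactivator PGC-1alpha, had 0 CPM in Oprm1-Cre interneuron-like and 55.7 CPM in SPN-like nuclei, but 132.6 and 56.2 CPM in those from Slc32a1-Cre mice (1.17). Gabpa, a subunit of the ETS factor named above, stood at 1.18 and 36.8 CPM for Slc32a1-Cre and at 20.5 and 28.9 CPM for Oprm1-Cre. These regulators have few reads, and the list's share was 0.0362% and 0.0369% of interneuron-like reads.

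Among SPN-like nuclei, D2-like nuclei devoted a larger share of reads to the members than D1-like nuclei on both plates. For Oprm1-Cre the summed share was 0.686% in 24 D2-like nuclei and 0.579% in D1-like nuclei, a log2 ratio of 0.24 (95% counting interval 0.23 to 0.26). For Slc32a1-Cre it was 0.770% in D2-like and 0.697% in D1-like nuclei, a log2 ratio of 0.14 (0.13 to 0.15). Single nuclei overlapped widely: the shares ran from 0.117% through a median of 0.477% to 1.63% in D1-like and from 0.222% through 0.665% to 1.35% in D2-like nuclei from Oprm1-Cre mice. Those from Slc32a1-Cre mice ran from 0.107% through 0.627% to 1.40% and from 0.198% through 0.717% to 1.70%. The difference between the medians was smaller than the spread of either class.

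The order of the classes was the same among nuclei of like gene number. On the Slc32a1-Cre plate, counted at 50000 reads, nuclei with fewer than 2500 other genes had median shares of 0.658% (36 D2-like) and 0.523% (19 D1-like), those with 2500 to under 3000 genes 0.688% (64) and 0.582% (75), those with 3000 to under 3500 genes 0.742% (27) and 0.651% (58), and those with 3500 or more 1.02% (21) and 0.715% (40). For Oprm1-Cre the 3 upper bins had medians of 0.652%, 0.501% and 0.707% in 6, 8 and 10 D2-like nuclei and of 0.435%, 0.451% and 0.582% in D1-like nuclei. D2-like medians were thus higher in all 7 bins that held both classes. Among Slc32a1-Cre nuclei the D2-like had fewer genes than the D1-like, with medians of 2805 and 3062 genes at 50000 reads. Among Oprm1-Cre nuclei they had more, 3406 and 3262. The median number of members detected at this depth went the same way, unlike the share. It was 36 in D2-like and 39 in D1-like nuclei for Slc32a1-Cre, and 40 and 36 for Oprm1-Cre.

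By log2 ratio of D2-like over D1-like nuclei, most members lay slightly above 0. The summed share gives abundant members more weight. Among these, Atp5a1 stood at 739.4 against 497.0 CPM for Oprm1-Cre and at 700.5 against 619.1 CPM for Slc32a1-Cre. On the Slc32a1-Cre plate 53 of 69 measured members had a log2 ratio above 0 and the median was 0.10, against -0.03 for all genes. Only Ndufa9, a complex I subunit that binds NADPH, lay above 0.5, at 126.4 against 83 CPM (0.58), and no member below -0.5, where 10.5% and 14.8% of all genes did. Ndufa9 reads were concentrated in 63 and 77 nuclei, so that its median was 0 in both classes. Of the Oprm1-Cre ratios 52 of 69 were above 0 with a median of 0.19 against -0.10 for all genes. There 11 passed 0.5 and 2 passed -0.5, where 19.2% and 30.3% of all genes did, or 49.6% in either direction. These ratios rest on 24 D2-like nuclei. Ndufb8 led at 153.7 against 71.8 CPM (1.05), followed by Ndufa10 at 179.4 against 97.5 CPM (0.85), and Atp5g3 fell furthest below at 83.6 against 153.6 CPM (-0.84). None of these 3 passed 0.5 on the other plate, and no member passed in the same direction on both, where 2.70% of genes passed upwards and 5.93% downwards on both. Both plates had 41 of 69 members above 0, or 59.4%, against 21.1% of the 10464 genes measured on both.

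By complex, medians on the Slc32a1-Cre plate were 0.11 for complex I, 0.02 for complex III, 0.07 for complex IV and 0.11 for complex V. For Oprm1-Cre they were 0.16, 0.28, 0.03 and 0.25. All 8 medians were above 0, and 4 of 8 and 7 of 8 members of complex III were, in the same order of plates. Of the 16 measured genes of the tricarboxylic acid cycle, which feeds NADH to complex I, none passed 0.5 in either direction on the Slc32a1-Cre plate and their median was -0.01, while for Oprm1-Cre 4 lay above and 2 below with a median of 0.22. Among the 6 genes of complex II and cytochrome c, Cycs, the electron carrier between complexes III and IV, stood at 25.3 against 10.8 CPM (0.94) and Sdhc at 68.8 against 45.6 CPM (0.55) in Slc32a1-Cre nuclei, with a list median of 0.19. In Oprm1-Cre nuclei Cycs stood at 6.06 against 6.00 CPM, Sdhc at 108.6 against 44.6 (1.20) and Sdhd at 38.8 against 58.2 CPM (-0.53), with a list median of -0.08.

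**Figure D3:**
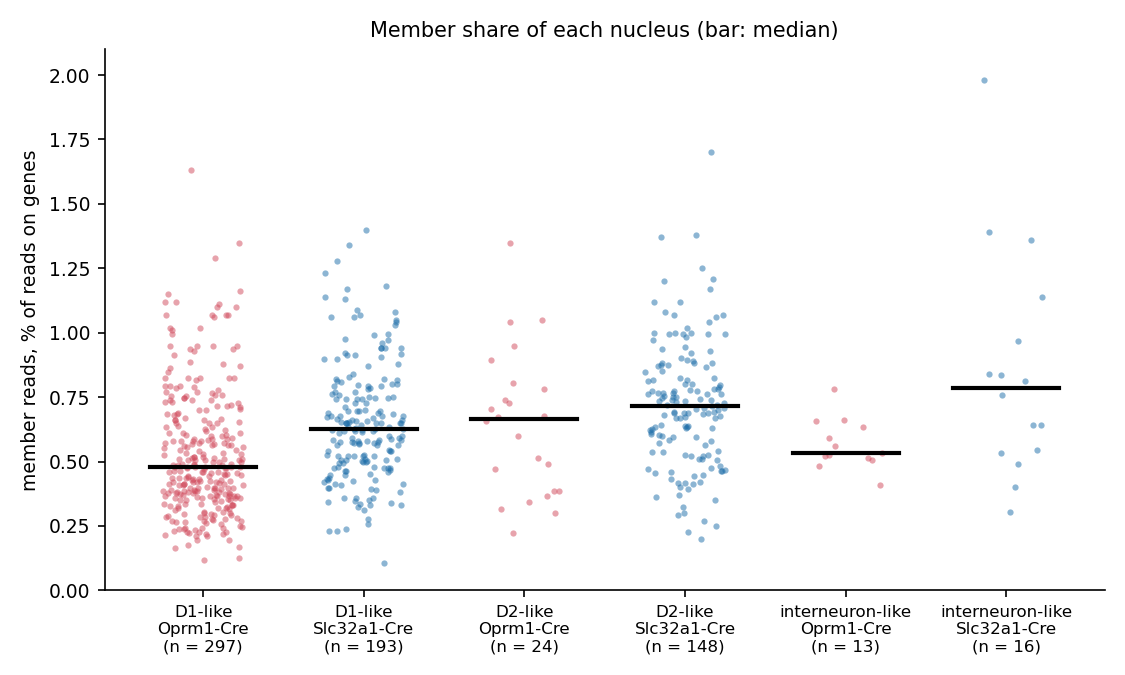
Share of reads on genes that fell on the 81 members (vertical, percent) in each D1-like, D2-like and interneuron-like nucleus of both plates, with a bar at the median. Medians run from 0.477% in Oprm1-Cre D1-like to 0.785% in Slc32a1-Cre interneuron-like nuclei, and all 6 groups overlap.

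Between the plates, SPN-like nuclei from Oprm1-Cre mice gave a smaller share of reads to the members. In D1-like nuclei the shares were 0.579% and 0.697%, a log2 ratio of -0.27 (95% counting interval -0.27 to -0.26), and in D2-like nuclei 0.686% and 0.770%, a log2 ratio of -0.17 (-0.18 to -0.15). The shift in D1-like nuclei was narrow: 56 of 68 measured members lay below 0 with a median of -0.21 against 0.00 for all genes, 2 lay below -0.5 and none above 0.5, where 12.3% and 14.9% of all genes did. The 2 were Atp5f1, the synthase peripheral stalk subunit b (now Atp5pb), at 117.7 against 183.3 CPM (-0.62), and Atp5s at 22.3 against 36.6 CPM (-0.61). Atp5f1 had medians of 60.7 CPM (0 to 981.1) and 114.8 CPM (0 to 1121) over the nuclei, while Atp5s was read in only 47 and 33 nuclei. All 8 complex III members lay below 0, with a median of -0.30.

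In D2-like nuclei, 24 of which came from Oprm1-Cre mice, 4 of 69 members lay above 0.5 and 13 below -0.5, where 23.5% and 29.2% of all genes did, and the median of -0.06 equalled that of all genes. The largest was Atp5g3 at 83.6 against 176.6 CPM (-1.03), in the same 24 nuclei that gave its low value above. Some other lists also had medians below 0 in D1-like nuclei. The shares of their genes below -0.5 lay on both sides of the 12.3% of all genes. The tricarboxylic acid cycle had a median of -0.31 with 3 of 16 genes below, glycolysis -0.18 with 3 of 17 and the abundant cytoplasmic mRNAs -0.30 with 3 of 23. Assembly factors had -0.07 with 6 of 42, cytosolic ribosomal proteins -0.07 with 2 of 40 and mitochondrial regulators -0.03 with 0 of 16. The nuclear-retained transcripts, led by Malat1, took 9.51% of reads on the Oprm1-Cre and 7.36% on the Slc32a1-Cre plate. Their part in the plate difference was not tested, and genotype, plate and sex cannot be told apart here.

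The member share rose with the number of genes found in a nucleus. D1-like nuclei were ranked, at 50000 reads each, by the number of other genes with a read, and split into tertiles. For Oprm1-Cre the median share was 0.431% in the lower, 0.455% in the middle and 0.580% in the upper tertile, and for Slc32a1-Cre 0.556%, 0.651% and 0.677%. The summed shares of the upper and lower tertiles were 0.713% and 0.488% (log2 ratio 0.55) and 0.797% and 0.574% (0.47). In Slc32a1-Cre D2-like nuclei the medians were 0.677%, 0.688% and 0.851%. The 24 Oprm1-Cre D2-like nuclei did not show a steady rise, with 0.638%, 0.585% and 0.817%. The ranges overlapped in all of these: the lower tertile of the Oprm1-Cre plate ran from 0.126% to 1.12% and the upper from 0.217% to 1.35%.

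Much of the gradient in D1-like nuclei lay in cluster 4. Clusters 4 and 5 had medians of 4958 to 5224 genes per nucleus, but no D1-like nucleus fell in cluster 5. In D1-like nuclei without cluster 4 the log2 ratio between tertiles was 0.18 on the Oprm1-Cre and 0.19 on the Slc32a1-Cre plate. The correlation of share and gene number dropped from 0.45 to 0.16 and from 0.44 to 0.09. These cover 488 nuclei of the 2 plates with cluster 4 and 427 without. Cluster 4 had median shares of 0.888% and 0.970% on the 2 plates and cluster 5 of 1.05% and 1.04%, where the other SPN-like clusters lay between 0.377% and 0.684%. Clusters 4 and 5 also had the lowest median spike-in shares of the SPN-like clusters, 10.8% to 15.9% of reads against 21.3% to 26.5%, and 208893 to 294056 reads on genes. Cluster 4 was led by Nefl, Gnb4 and Cplx2, and cluster 5 by Drd2, Penk and Adora2a.

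**Figure D4:**
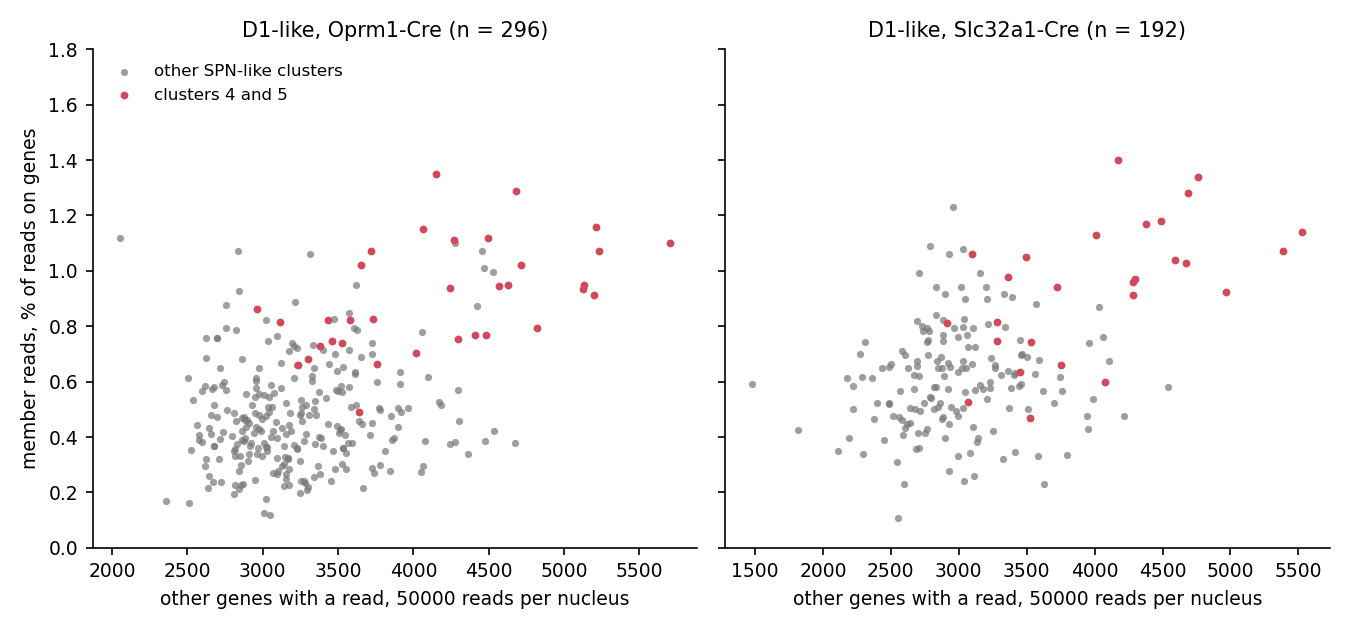
Share of reads on members (vertical, percent) against the number of other genes with a read at 50000 reads (horizontal) in D1-like nuclei of each plate. Nuclei of clusters 4 and 5, here all of cluster 4, are in red and the remaining nuclei in grey. Correlations over all nuclei are 0.45 and 0.44, and over the grey nuclei 0.16 and 0.09.

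Between tertiles, the median member of each of the 4 complexes was higher in nuclei with many genes. Among Oprm1-Cre nuclei 34 of 69 measured members lay above 0.5 and 1 below -0.5, where 25.9% and 17.1% of all genes did (42.9% in either direction), with a median of 0.49 against 0.09 for all genes. Among Slc32a1-Cre nuclei 31 of 69 lay above and 1 below, where 29.6% and 21.8% of all genes did (51.4% in either direction), with a median of 0.41 against 0.09. Scaled by the median of ratios, the second count was 20. The complex III subunit Uqcr11 was high on both plates, at 49 against 16.6 CPM (1.32) and 47.5 against 17.2 CPM (1.24). Between Oprm1-Cre tertiles Ndufb9 went from 59.4 to 149.9 CPM (1.27) and Cox6b1 from 41 to 92.1 CPM (1.08). Between Slc32a1-Cre tertiles Cox8a went from 37.2 to 93.9 CPM (1.23) and Ndufa11 from 34 to 72.3 CPM (0.99). The members below -0.5 were Atp5sl on the first plate (-0.64), which is no synthase subunit, and Ndufab1 on the second (-0.57), at 2.86 and 6.65 CPM.

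On both plates 20 members lay above 0.5: 6 of complex V (Atp5c1, Atp5d, Atp5e, Atp5g3, Atp5j, Atp5o), 6 of complex IV (Cox5a, Cox5b, Cox6a1, Cox6b1, Cox7a2, Cox8a), 5 of complex I (Ndufa10, Ndufa11, Ndufa5, Ndufb3, Ndufb7) and 3 of complex III (Uqcr11, Uqcrh, Uqcrq). They are 29.4% of the 68 members measured on both plates, where 11% of the 10436 genes measured on both did the same. The 20 make up 58.8% of the 34 members above 0.5 for Oprm1-Cre and 64.5% of the 31 for Slc32a1-Cre. No member was below -0.5 on both. Complex IV had the highest medians of the 4 complexes, 0.90 and 0.58, with 8 and 7 of 11 members above 0.5. Complex V had 0.46 and 0.57 with 7 and 9 of 15, complex III 0.52 and 0.46 with 4 of 8 on either plate, and complex I 0.49 and 0.27 with 15 and 11 of 35. The 11 of complex I on the Slc32a1-Cre plate are close to the share of all genes given above, and 9 of its 35 members there were negative. Of the 20, 19 have a promoter window; 7 of these hold the NRF1 letters and 8 the ETS letters, as shown above for Cox6a1, Ndufa11, Uqcr11 and Uqcrh. Among the 48 other members measured on both plates, 39 have a window, of which 7 hold NRF1 and 5 ETS letters. YY1 letters went the other way, in 1 of the 19 and 10 of the 39, and cAMP response elements stood in 2 and 2 and TATA letters in 1 and 3. The 20 were chosen by their values, and the counts are a description.

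**Figure D5:**
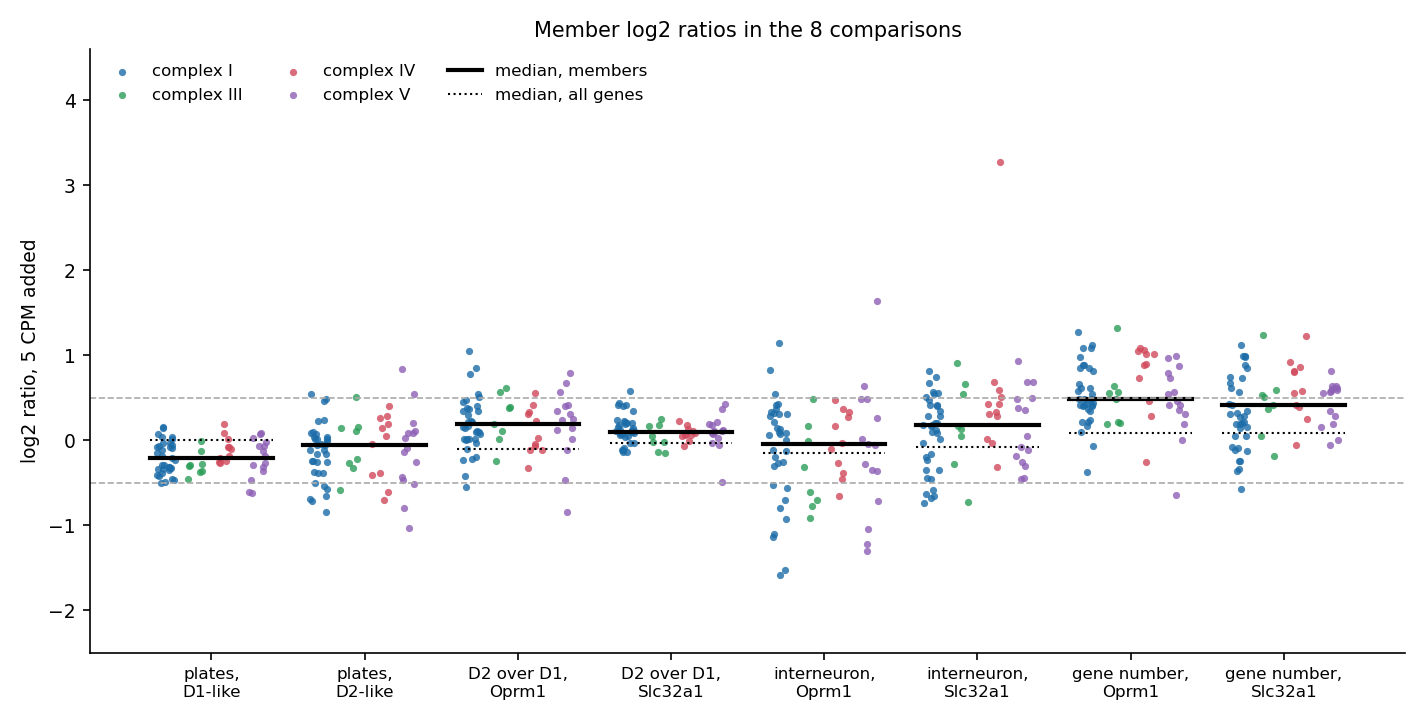
Log2 ratio (5 CPM added) of each measured member, coloured by complex, in the 8 comparisons; plates are Oprm1-Cre over Slc32a1-Cre, interneuron-like is over SPN-like, and gene number is the upper over the lower tertile of D1-like nuclei. Solid bars mark the member median, dotted bars the median of all genes, and dashed lines 0.5 and -0.5; the highest point is Cox6a2 at 3.27.

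Across D1-like nuclei of 1 plate, which are not replicates, the member share went with other metabolic and cytoplasmic mRNAs. At 50000 reads per nucleus the Pearson correlation with the share of the abundant cytoplasmic mRNAs was 0.82 for Oprm1-Cre and 0.74 for Slc32a1-Cre (488 nuclei on the 2 plates), and with nuclear-retained transcripts -0.65 and -0.60. With glycolysis it was 0.70 and 0.59, with cytosolic ribosomal proteins 0.50 and 0.33, and with the spike-in percentage -0.52 and -0.46. With the assembly factors of the same complexes it was only 0.14 and 0.12. Without clusters 4 and 5 the correlation with abundant cytoplasmic mRNAs was 0.72 and 0.62 (427 nuclei). Shares of 1 total are not free of each other, and these values are descriptions with no test.

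Between tertiles the lists differed in how many genes lay above 0.5, where 25.9% (Oprm1-Cre) and 29.6% (Slc32a1-Cre) of all genes did. Of the abundant cytoplasmic mRNAs, 15 of 22 and 11 of 24 measured genes lay above 0.5, in the order Oprm1-Cre and Slc32a1-Cre, of complex II and cytochrome c 4 of 6 on either plate, of the tricarboxylic acid cycle 8 of 16 and 7 of 16, and of glycolysis 4 of 17 and 8 of 17. Glycolysis on the Oprm1-Cre plate is near the share of all genes. Of the assembly factors 6 of 40 and 13 of 41 did, of the cytosolic ribosomal proteins 9 of 45 and 12 of 49, of the mitochondrial ribosome 25 of 75 on either plate, of the import genes 7 of 23 and 5 of 23 and of the regulators 7 of 17 and 6 of 16. Nuclear-retained transcripts took 10.3% of reads in the lower and 8.09% in the upper tertile of the Oprm1-Cre plate, and 8.24% and 6.29% on the Slc32a1-Cre plate, and the median spike-in percentage was 27.6% and 19.1%, and 26% and 16.8%. The part of cytoplasmic RNA or of RNA content in the member gradient was not tested, and more RNA per nucleus and more RNA adhering to it cannot be told apart.

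The complexes rose and fell together from nucleus to nucleus to a moderate degree. Over D1-like nuclei the correlation of the share of complex I was 0.62 and 0.47 with that of complex IV and 0.61 and 0.48 with that of complex V, for Oprm1-Cre and Slc32a1-Cre (488 nuclei). In D1-like nuclei complex III went least with the others, at 0.18 to 0.45 over its 3 pairs on both plates. This did not hold in D2-like nuclei. For Slc32a1-Cre, complex I there had 0.36 with complex III, 0.34 with complex IV and 0.33 with complex V. For Oprm1-Cre, complex V had 0.66 with complex III and 0.56 with complex IV. Complex III has 8 members with a summed share of 0.0618% and 0.0776% of reads in D1-like nuclei, where complex I has 0.230% and 0.275%, complex IV 0.0735% and 0.0823% and complex V 0.215% and 0.263%.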

How the data were processed

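Nuclei of 2 plates (768 wells) were analysed from the authors' deposited read counts per gene and well, whole numbers with no molecular identifiers, so that intervals cover counting error only. The submitters' processing notes name mm10, SAMtools and Seurat; the sources used here do not give the aligner, counter, annotation or strand setting. The labels' protocols name a column RNA kit and a stranded total RNA kit. The 92 spike-in rows and 1 reporter row were kept out of totals, and 32 wells were left out as too shallow.

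Kept nuclei were clustered together (2000 variable genes, 30 principal components, 15 neighbours, Leiden resolution 1, seed 1; Python 3.11.15, scikit-learn 1.9.0, leidenalg 0.10.2) and named from marker lists by mean log2(CPM + 1). A nucleus of an SPN-like cluster also had to score at least 3 for SPN markers, above every other class, and for D1 or D2 markers, a rule set after seeing the data; 21 nuclei then had no class. D1 and D2 scores had to differ by more than 2. Possible doublets (14 and 10) stayed in and were left out in an alternative. No kept nuclei had identical counts.

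Reads were summed per class and plate. A member's ratio is log2 of CPM with 5 added, for members with at least 5 CPM in either sum, and past the fold means over 0.5 in size. Intervals are exact Poisson or Clopper-Pearson at 95%. Transcript lengths, coordinates and 40-base coding windows came from GENCODE vM21 (GRCm38), promoters from RefSeq. The ratio was tested on simulated data. Named members are the 8 highest per kilobase, up to 6 per direction and comparison past the fold with intervals apart, the isoform groups, members with no read and the 3 found in the most and in the fewest nuclei, described in part. Members and lists were chosen with earlier results of these data known, and no test across replicates was possible with 1 plate per genotype.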

Additional observations from a re-analysis of the deposited data

Results flagged for a closer look

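The summed contrast of interneuron-like with SPN-like nuclei, and that of 4 members, had opposite signs on the 2 plates; the difference was not tested, each direction coming from a single plate with 13 and 16 interneuron-like nuclei. The summed member share had log2 ratios of -0.03 on the Oprm1-Cre and 0.27 on the Slc32a1-Cre plate. Among members, the complex I subunit Ndufa5 had -0.53 and 0.56, the complex I subunit Ndufa8 -0.56 and 0.74, the Rieske iron-sulfur protein of complex III, Uqcrfs1, -0.77 and 0.66, and the complex III hinge protein Uqcrh -0.61 and 0.54, in the same order of plates. All interneuron-like nuclei of the Oprm1-Cre plate lay in cluster 6, and 9 of 16 on the other plate in cluster 7. Of the 68 members measured on both plates 43 (63.2%) had the same sign, against 63.9% of all genes, and 5.88% were past 0.5 in opposite directions, against 12.3% of all genes. The Oprm1-Cre ratio was 0.16 by the median over nuclei, and with cluster 6 alone the Slc32a1-Cre ratio was -0.09, of the same sign as the reported Oprm1-Cre ratio. Cluster 6 was not of like make-up on the 2 plates. Most of its Oprm1-Cre nuclei had Th reads, while most of its Slc32a1-Cre nuclei had Sst and Npy reads and no Th read.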

How the results depend on the processing

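Log2 share ratios are given in the order of plates in D1-like and D2-like nuclei, D2-like over D1-like (Oprm1-Cre, Slc32a1-Cre), interneuron-like over SPN-like (same order) and gene number (same order), where reported as -0.27, -0.17, 0.24, 0.14, -0.03, 0.27, 0.55 and 0.47. The median over nuclei gave -0.39, -0.11, 0.48, 0.19, 0.16, 0.25, 0.43 and 0.28, and member reads per spike-in read -0.43, -0.08, 0.44, 0.09, 0.01, 0.54, 1.41 and 1.51. Other alternatives are given where they moved a ratio beyond its counting interval. Without nuclear-retained transcripts in the denominator the plate ratios were -0.23 and -0.13, the interneuron ratios -0.07 and 0.25 and the gene number ratios 0.51 and 0.44. Without the member with the most reads, Atp5b, the interneuron ratios were -0.09 and 0.23 and the gene number ratios 0.57 and 0.46. With at least 100000 reads per nucleus, the D1-like plate ratio was -0.26 and the Oprm1-Cre interneuron ratio -0.06. Classes from each nucleus alone gave -0.25 between plates (D1-like), 0.37 for Slc32a1-Cre interneurons and 0.53 for Oprm1-Cre gene number. Without possible doublets the plate ratios were -0.30 and -0.15, D2-like over D1-like 0.30 (Oprm1-Cre), the interneuron ratios 0.02 and 0.15 and the gene number ratios 0.45 and 0.44.

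The alternatives that follow were chosen after seeing the data. Without clusters 4 and 5 the D1-like plate ratio was -0.31, Slc32a1-Cre D2-like over D1-like 0.12, the interneuron ratios 0.16 and 0.43 and the gene number ratios 0.18 and 0.19. The mean within bins of gene number gave -0.36 for either plate ratio, 0.21 for D2-like over D1-like on either plate and 0.09 for Slc32a1-Cre interneurons. Leaving out the 15 members with at least 50% of coding windows in another gene gave 0.29 for Slc32a1-Cre interneurons, and cluster 6 alone -0.09. Between plates, between D2-like and D1-like and by gene number, all 11 alternatives kept the direction; the Oprm1-Cre interneuron ratio changed sign under 4 of 11 and the Slc32a1-Cre one under 1 of 12, and the cause was not tested.

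With 1 CPM added, 4 members lay below -0.5 between plates in D1-like nuclei (reported 2) and 1 in Slc32a1-Cre D2-like over D1-like (reported 0). Under median-of-ratios scaling 1 lay below in Oprm1-Cre D2-like over D1-like (reported 2), and 20 above by gene number in Slc32a1-Cre nuclei (reported 31). No paired analysis was possible because each genotype is 1 plate and the numbers shared by wells only name them. Depth limits members read in few nuclei, and leaving out a replicate was not possible with 1 plate per genotype.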

Other observations

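The 21 kept nuclei that took no class gave 0.553% of their reads to the members (Clopper-Pearson 95% interval 0.544 to 0.562), with a median of 0.554% over nuclei and a range from 0.248% to 1.22%. The 32 wells left out as too shallow held 47991 reads on genes in all, of which 426, or 0.888% (0.806 to 0.976), fell on members.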
